A study of Mus musculus with 25 samples.

Results

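The translation initiation factor genes are the protein-coding mouse genes whose symbols begin with Eif1, Eif2, Eif3, Eif4, Eif5 or Eif6, with the sex-linked pair Eif2s3x and Eif2s3y left out. By name alone, with no measured value used, 52 genes met this rule among the 35561 genes listed in at least 1 of the deposited tables. All 52 stood in both tables, which list 25158 genes for oocytes and 34228 genes for embryos. Eif4ebp3, which the rule also takes, was not analysed here.

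Libraries were made by Smart-seq2, a method for full-length cDNA of a few cells, from C57BL/6 mouse material in 6 groups. These were metaphase II (MII) oocytes with VCD (n = 5) and with PBS (n = 4), 2-cell embryos with VCD (n = 4) and with PBS (n = 4), and morulae with VCD (n = 4) and with PBS (n = 4). Oocytes isolated at the germinal vesicle stage were matured in culture for 16 h, and embryos came from fertilization in culture over 6 h, with the 2-cell stage scored after 24 h. VCD is the labels' name for a small molecule put into the culture media, and PBS, a buffered saline, was the control agent. The sources used here do not give the full name and dose of VCD, how many oocytes or embryos went into a library, or whether replicates had their own animals or cultures. The p-values therefore measure the spread between these samples, which may be technical.

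Initiation brings a ribosome to the start codon of an mRNA. The factor eIF2 carries the initiator tRNA to the small ribosomal subunit, where eIF1, eIF1A, eIF5 and the large scaffold eIF3 let the complex scan for the start codon. eIF4E grips the mRNA cap, eIF4G links it to the RNA helicase eIF4A and to eIF3, and eIF4E-binding proteins block that link. eIF2B reloads eIF2 with GTP, a step that the eIF2 kinases shut down under stress, and eIF5B and eIF6 act on the joining of the large subunit. A full-grown oocyte is almost silent in transcription and lives on stored maternal mRNA, and in the mouse the embryo's own genome becomes broadly active at the 2-cell stage.

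Values are FPKM, the fragments counted for a gene, scaled to the length of its transcript and to the total of its library. They are shares of a library, so more RNA of a gene per embryo and less of all other RNA cannot be told apart. The authors normalized oocytes and embryos in separate tables, so oocyte levels are set beside embryo levels with no test. The libraries held between 15075831 and 20998296 reads or fragments, as implied by the steps of the values. No library stood apart, with the median Pearson's r to the other libraries of its group, across genes, between 0.968 and 0.993. The markers of each stage summed highest at that stage. Oocyte markers summed to 13593 to 16739 FPKM in MII oocytes, 3133 to 4133 FPKM in 2-cell embryos and at most 60.8 FPKM in morulae. The 2-cell markers summed to 1131 to 1607 FPKM in 2-cell embryos, 75.4 to 96.5 FPKM in MII oocytes and at most 20.8 FPKM in morulae. Morula markers summed to 242 to 410 FPKM in morulae, 33.2 to 49.4 FPKM in 2-cell embryos and 51.3 to 79.3 FPKM in MII oocytes. Single markers did not all follow. By group means Gata3 was at 19.6 FPKM in PBS oocytes and 11.9 FPKM in PBS morulae, and Figla was below 1 FPKM throughout. Of 11 markers of cumulus and granulosa cells, 10 were in the oocyte table, and they summed to between 8.06 and 10.5 FPKM in VCD oocytes and between 9.08 and 11.8 FPKM in PBS oocytes. Most of that was Cyp19a1, the aromatase gene, at 8.35 ± 0.916 FPKM in VCD oocytes and 8.85 ± 0.845 FPKM in PBS oocytes (SD, n = 5 and 4), while Amh was at or below 0.123 FPKM. The part of such cells in the oocyte results was not tested.

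Together the 52 genes held 0.615% ± 0.02104 of all FPKM in VCD oocytes and 0.614% ± 0.00918 in PBS oocytes, 0.556% ± 0.0338 in VCD and 0.536% ± 0.0101 in PBS 2-cell embryos, and 1.82% ± 0.0954 in VCD and 1.87% ± 0.0435 in PBS morulae (SD, n = 5 for VCD oocytes and 4 for each other group). The order of the members differed between the stages. In PBS oocytes the highest mean belonged to Eif2b1, a regulatory subunit of eIF2B, followed by the helicase Eif4a1 and the cap-binding protein Eif4e3, and in PBS morulae to Eif5a, Eif3e and Eif3g. Among members at 5 FPKM or more, the median coefficient of variation within a group ran between 7.24% in PBS oocytes and 16.9% in VCD 2-cell embryos.

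**Figure D1:**
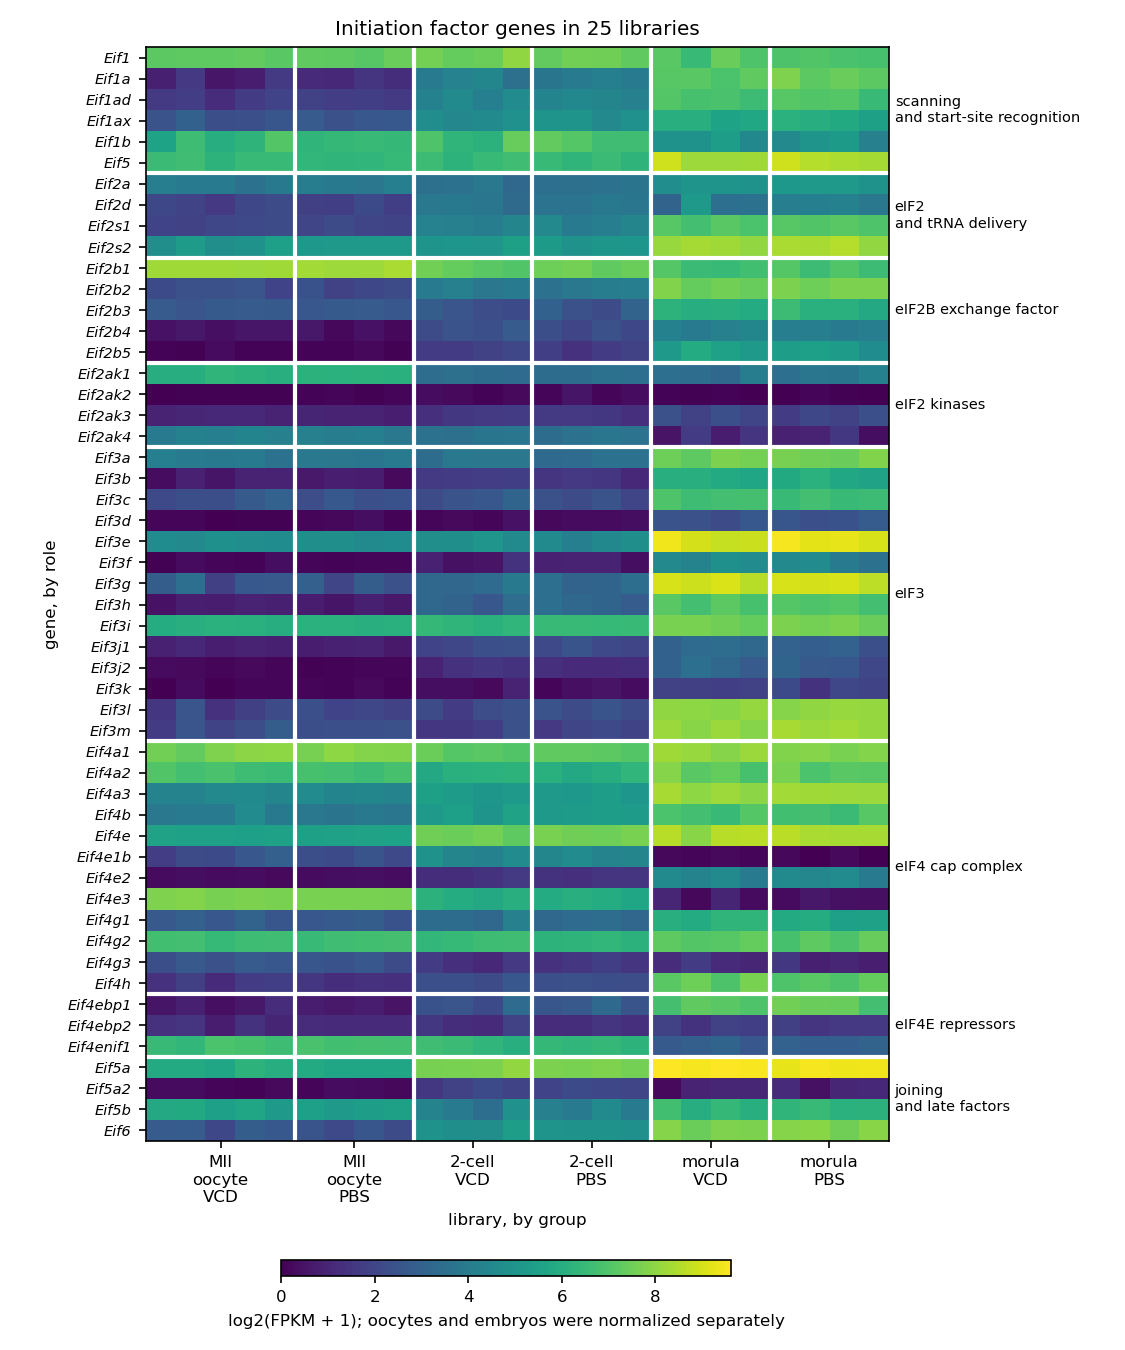
Each row is 1 of the 52 genes, ordered by role, and each column 1 of 25 libraries, with VCD left of PBS at each stage; colour gives log2(FPKM + 1), from dark for low to yellow for high. Most of the eIF3 block turns from dark to bright between the 2-cell and morula columns, Eif4e3, Eif4enif1 and Eif2ak4 do the reverse, and VCD and PBS columns of a stage look alike.

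Morulae were then compared with 2-cell embryos within each agent, which shows how RNA of the factors differed between these stages. On the log2(FPKM + 1) scale, limma tested 51 of the 52 genes in each comparison, all but the kinase Eif2ak2. With VCD, 39 rose and 8 fell in morulae, and with PBS 41 rose and 9 fell, at a Benjamini-Hochberg adjusted p below 0.05 over all genes. Across all 12355 genes tested with VCD, 41.0% were called higher and 43.9% lower in morulae, and across 12517 with PBS, 42.7% were called higher and 45.0% lower. The members' median log2 fold change was 1.81 with VCD and 1.86 with PBS, and that of all genes tested was -0.080 with VCD and -0.081 with PBS. The same 39 genes rose and the same 8 fell with both agents, and none was called in opposite directions. Of the 51 tested genes, 8 with each agent reached 1 FPKM in all 4 libraries of only 1 stage. Of these, 3 with VCD (Eif3d, Eif3k and Eif4e1b) and 5 with PBS (also Eif3f and Eif4e3) were below 1 FPKM in every library of the other stage, so they were tested only through the stage where they were high, and the counts are a description. Scaling by the median of ratios moved the median of all genes to -0.55 with VCD and -0.58 with PBS, and left 36 members higher and 9 lower with either agent.

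**Figure D2:**
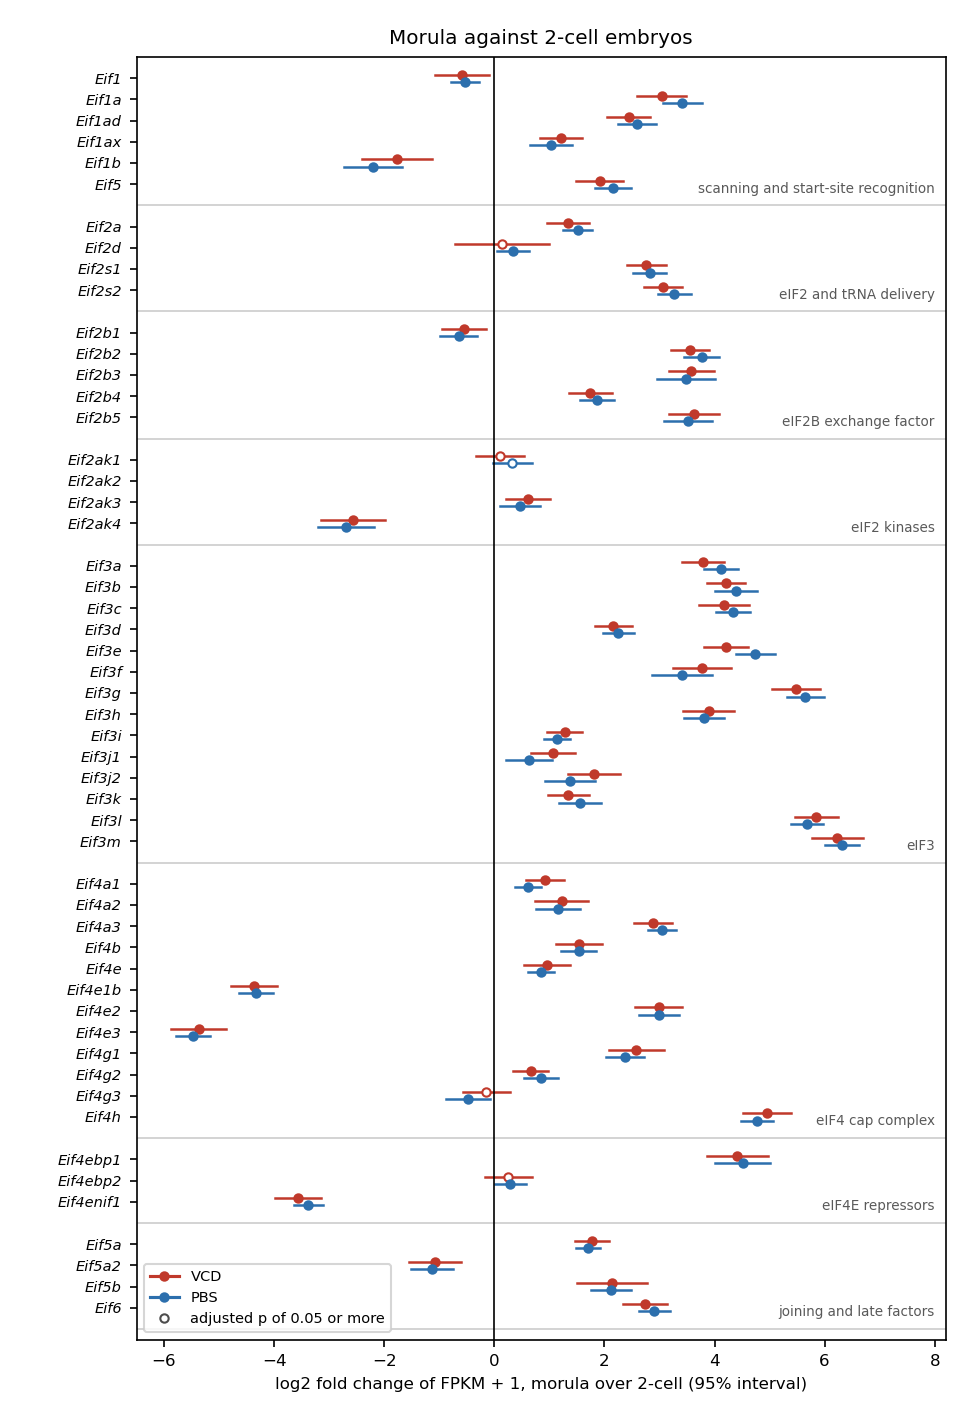
Points give the log2 fold change of FPKM + 1 in morulae over 2-cell embryos with VCD (red) and PBS (blue), bars the 95% interval, and open points an adjusted p of 0.05 or more; genes are grouped by role. All eIF3 genes lie right of 0, and Eif4e3, Eif4e1b, Eif4enif1 and Eif2ak4 lie farthest left, below -2 with either agent.

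The eIF3 genes, which encode the scaffold that binds the small subunit and receives the mRNA from eIF4G, showed the widest rise. All 14 rose in morulae with both agents, with median log2 fold changes of 3.84 with VCD and 3.96 with PBS. Eif3d, Eif3f and Eif3k passed the filter through the morulae, and of their 2-cell libraries 1, for Eif3f with VCD, held more than 1 FPKM. The summed level of the 14 genes was 126 ± 4.64 FPKM in VCD oocytes and 127 ± 4.03 in PBS oocytes, 154 ± 8.78 in VCD and 157 ± 3.88 in PBS 2-cell embryos, and 2232 ± 208 in VCD and 2372 ± 160.0 in PBS morulae (SD, n = 5 for VCD oocytes and 4 elsewhere). Every morula sum lay far above those of 2-cell embryos. Under median-of-ratios scaling the rise of Eif3j1 with PBS did not pass (log2 fold change 0.20, adjusted p = 0.327), and those of the other 13 did with both agents.

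Eif3m (chr2:104999656-105017080 in GRCm38), a subunit of the octamer core, had the largest rise of any member on the log2(FPKM + 1) scale. It stood at 289, 239, 285 and 236 FPKM in VCD morulae, against 1.895, 1.91, 2.38 and 4.204 FPKM in VCD 2-cell embryos. With PBS the values were 325, 290.1, 311 and 277 FPKM in morulae and 2.04, 3.04, 3.31 and 2.91 FPKM in 2-cell embryos. Stages did not overlap, and the lowest morula lay far above the highest 2-cell embryo, with log2 fold changes of 6.23 ± 0.21 with VCD and 6.31 ± 0.14 with PBS (SE) and adjusted p of 1.12e-09 and 7.31e-11. In oocytes Eif3m averaged 3.97 ± 1.55 FPKM with VCD and 4.099 ± 0.0843 with PBS (SD, n = 5 and 4), so it was low through the 2-cell stage.

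Eif3l, another core subunit, followed the same course. Its level was 261, 254, 237 and 274 FPKM in VCD morulae, against 3.64, 2.31, 3.898 and 4.29 FPKM in VCD 2-cell embryos, and 231, 258, 278 and 273 FPKM in PBS morulae, against 4.51, 3.595, 4.66 and 3.66 FPKM in PBS 2-cell embryos. No library of one stage came near the other (log2 fold changes of 5.85 ± 0.18 with VCD and 5.68 ± 0.13 with PBS (SE)). Eif3g, an RNA-binding subunit, reached 521, 469, 542 and 389 FPKM in VCD morulae and 525, 509, 529 and 408 FPKM in PBS morulae, where 2-cell embryos had 8.59, 8.03, 9.18 and 13.99 FPKM with VCD and 10.4, 7.401, 7.58 and 10.2 FPKM with PBS. One PBS morula and one VCD morula were lower than the rest, and the log2 fold changes were 5.48 ± 0.20 and 5.65 ± 0.15 with VCD and PBS (SE).

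Eif3e, which was already present in oocytes at 25.05 FPKM with VCD and 25.4 FPKM with PBS, became the most abundant eIF3 gene of morulae. It held 678, 508, 435 and 455 FPKM in VCD morulae, against 25.7, 26.6, 31.8 and 23.3 FPKM in VCD 2-cell embryos, and 722, 594, 615 and 525 FPKM in PBS morulae, against 23.2, 16.8, 21.6 and 26.8 FPKM in PBS 2-cell embryos. The remaining large rises were those of Eif3a, the largest subunit, with log2 fold changes of 3.79 with VCD and 4.12 with PBS, and of Eif3b, Eif3c, Eif3f and Eif3h, between 3.41 and 4.39 over both agents. Eif3i, a propeller-shaped subunit, changed least among the well-expressed ones and was also the most abundant eIF3 gene of oocytes and 2-cell embryos. It averaged 189 ± 19.4 FPKM in VCD morulae, against 77.5 ± 6.17 FPKM in VCD 2-cell embryos, and 197 ± 18.6 FPKM in PBS morulae, against 88.9 ± 2.17 FPKM in PBS 2-cell embryos (SD, n = 4 each).

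The measured RNA of the subunit genes thus stood at very unequal FPKM early on. Over 10 subunits, a, b, c, e, f, g, h, i, l and m, the highest mean was 449 times the lowest in VCD oocytes and 650.3 times in PBS oocytes, 94.7 times in VCD and 121 times in PBS 2-cell embryos, and 22.5 times in VCD and 34.2 times in PBS morulae. Over all 13 subunits, with d, k and Eif3j1 added, it was 1019 times in VCD and 650.3 times in PBS oocytes, 386 times in VCD and 397 times in PBS 2-cell embryos, and 205 times in VCD and 219 times in PBS morulae. The gap was thus narrower in morulae with either choice, but far less so once the low d and k were counted. Eif3f was the lowest of the 10 and Eif3i or Eif3e the highest in every group. Eif3k and Eif3d stayed under 6 FPKM in all libraries. Eif3j1 and Eif3j2 are near copies, with 91.8% of the 50-base words of Eif3j2 transcripts present in transcripts of another gene, so reads of the pair could be split either way and their separate values are uncertain. Words are also shared with other genes by Eif3h (20.3%) and Eif3m (17.2%), which makes those values less certain.

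Promoters of members that rose and fell are shown because these genes moved together between stages. Of the 52 members, 41 had a promoter in the RefSeq table for GRCm38.p6, which covers 250 bases before and 50 bases after the annotated start. The 7-base core of ETS-family sites, CCGGAAG, searched on both strands, was found in 10 of 30 such promoters of members that rose with both agents, in 2 of 6 of members that fell, and in 9.12% of all 27025 promoters of the table. E-boxes, CACGTG, were in 6 of 30, 2 of 6 and 7.24% of all, and CCAAT was in 9 of 30, 3 of 6 and 37.9% of all. TATAAA stood in 3 of 30, 0 of 6 and 14.2% of all, GGATTA in 4 of 30, 1 of 6 and 7.16%, and the palindromic NRF1 motif in 4 of 30, 1 of 6 and 4.78%. A match is only a run of letters, and members that rose and members that fell both held them.

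The 150 bases before the RefSeq start of 5 of these genes are given in 5′ to 3′ order on the strand of the gene, with matches to the 6 motifs in capitals. They are the eIF3 genes with the largest rises, the helicase partner Eif4h, which also rose, and the repressor Eif4enif1, which fell.
Eif3m, chr2:105017028-105017177, minus strand: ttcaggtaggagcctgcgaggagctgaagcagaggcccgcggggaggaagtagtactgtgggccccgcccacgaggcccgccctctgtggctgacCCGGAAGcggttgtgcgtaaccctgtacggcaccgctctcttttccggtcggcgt
Eif3g, chr9:20898591-20898740, minus strand: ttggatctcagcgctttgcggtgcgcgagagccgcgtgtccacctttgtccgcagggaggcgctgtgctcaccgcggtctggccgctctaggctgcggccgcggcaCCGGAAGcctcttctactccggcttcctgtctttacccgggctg
Eif3l, chr15:79075073-79075222, plus strand: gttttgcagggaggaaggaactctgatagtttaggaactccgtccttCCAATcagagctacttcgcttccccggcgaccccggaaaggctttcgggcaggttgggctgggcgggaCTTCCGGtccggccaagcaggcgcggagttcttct
Eif4h, chr5:134639410-134639559, minus strand: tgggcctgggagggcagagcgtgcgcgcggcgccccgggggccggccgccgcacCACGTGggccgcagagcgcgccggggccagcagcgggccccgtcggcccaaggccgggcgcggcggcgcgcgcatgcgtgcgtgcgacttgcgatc
Eif4enif1, chr11:3202203-3202352, plus strand: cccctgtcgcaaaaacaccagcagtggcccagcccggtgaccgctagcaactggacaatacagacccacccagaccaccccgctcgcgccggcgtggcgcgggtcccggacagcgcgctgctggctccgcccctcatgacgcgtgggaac
The first 3 stretches each hold the ETS core, in Eif3l on the opposite strand as CTTCCGG, that of Eif4h holds an E-box, and none of the 6 motifs occurs in the stretch of Eif4enif1.

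RNA of the genes grouped here as the eIF4 cap complex went both ways. Of 12 genes, 9 rose with both agents, and Eif4e3 and Eif4e1b fell. Among all genes tested, 41.0% were called higher and 43.9% lower with VCD, and 42.7% higher and 45.0% lower with PBS. Eif4e, the general cap-binding protein, was measured at 45.8, 45.01, 44.4, 42.6 and 44.6 FPKM in VCD oocytes and 43.2, 44.5, 45.5 and 46.7 FPKM in PBS oocytes. In 2-cell embryos it was at 183, 175, 195 and 151 FPKM with VCD and 203, 186, 181 and 203 FPKM with PBS, and in morulae at 380.5, 237, 388 and 396 FPKM with VCD and 391, 337, 327 and 332 FPKM with PBS. Values were higher at each later stage, and all morulae lay above all 2-cell embryos, including the low VCD morula of replicate 2. Its log2 fold change in morulae was 0.96 ± 0.19 with VCD and 0.84 ± 0.11 with PBS (SE, adjusted p = 0.00059 and 2.07e-05). Under median-of-ratios scaling the rise with VCD no longer passed (log2 fold change 0.46, adjusted p = 0.0705).

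Eif4e1b (chr13:54783998-54788459, GRCm38) encodes an eIF4E relative known from oocytes and early embryos. Oocytes had 2.37, 3.55, 3.46, 5.09 and 6.63 FPKM with VCD and 4.01, 3.51, 4.67 and 3.32 FPKM with PBS, and 2-cell embryos 30.003, 19.8, 17.8 and 24.1 FPKM with VCD and 20.5, 24.3, 18.8 and 19.7 FPKM with PBS. In morulae it was at 0.154, 0.137, 0.174 and 0.0846 FPKM with VCD and 0.148, 0, 0.188 and 0 FPKM with PBS. The highest values of all groups were thus those of 2-cell embryos, and it was nearly gone from morulae. In recovered reads, VCD morulae held 6, 5, 6 and 3 and PBS morulae 7, 0, 8 and 0, where every 2-cell library held at least 688, counting error only. The drop gave log2 fold changes of -4.37 ± 0.19 with VCD and -4.33 ± 0.14 with PBS (SE), adjusted p of 5e-09 and 4.44e-10, on a scale that understates changes of low genes. Every morula was below 1 FPKM, so Eif4e1b was tested only through the 2-cell embryos where it was high, and the drop is a description.

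Eif4e3 (chr6:99625135-99666771, GRCm38), another cap-binding relative, was among the highest members in oocytes. It had 215, 229, 198, 211 and 207 FPKM in VCD oocytes and 206, 206, 205 and 199 FPKM in PBS oocytes, 72.5, 60.4, 55.5 and 64.7 FPKM in VCD and 60.3, 66.4, 60.8 and 50.5 FPKM in PBS 2-cell embryos, and 1.04, 0.148, 0.987 and 0.227 FPKM in VCD and 0.227, 0.554, 0.337 and 0.305 FPKM in PBS morulae. Each later stage lay wholly below the one before, and the fall to morulae was the largest among members on the log2(FPKM + 1) scale, with log2 fold changes of -5.37 ± 0.23 with VCD and -5.48 ± 0.14 with PBS (SE) and adjusted p of 4.48e-09 and 1.3e-10. With each agent Eif4e3 passed the filter through the 2-cell embryos, and no PBS morula reached 1 FPKM, so this fall too is a description. The read-through gene Gm20696 overlaps 373 of its exon bases on the same strand and was at 0.363 FPKM or less in every library. Eif4e2, a cap-binding protein known for repressing translation, went the other way. It averaged 20.02 ± 3.88 FPKM in VCD morulae, against 1.63 ± 0.325 FPKM in VCD 2-cell embryos, and 20.7 ± 4.03 FPKM in PBS morulae, against 1.69 ± 0.1705 FPKM in PBS 2-cell embryos (SD, n = 4 each), with log2 fold changes of 2.98 and 2.996.

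**Figure D3:**
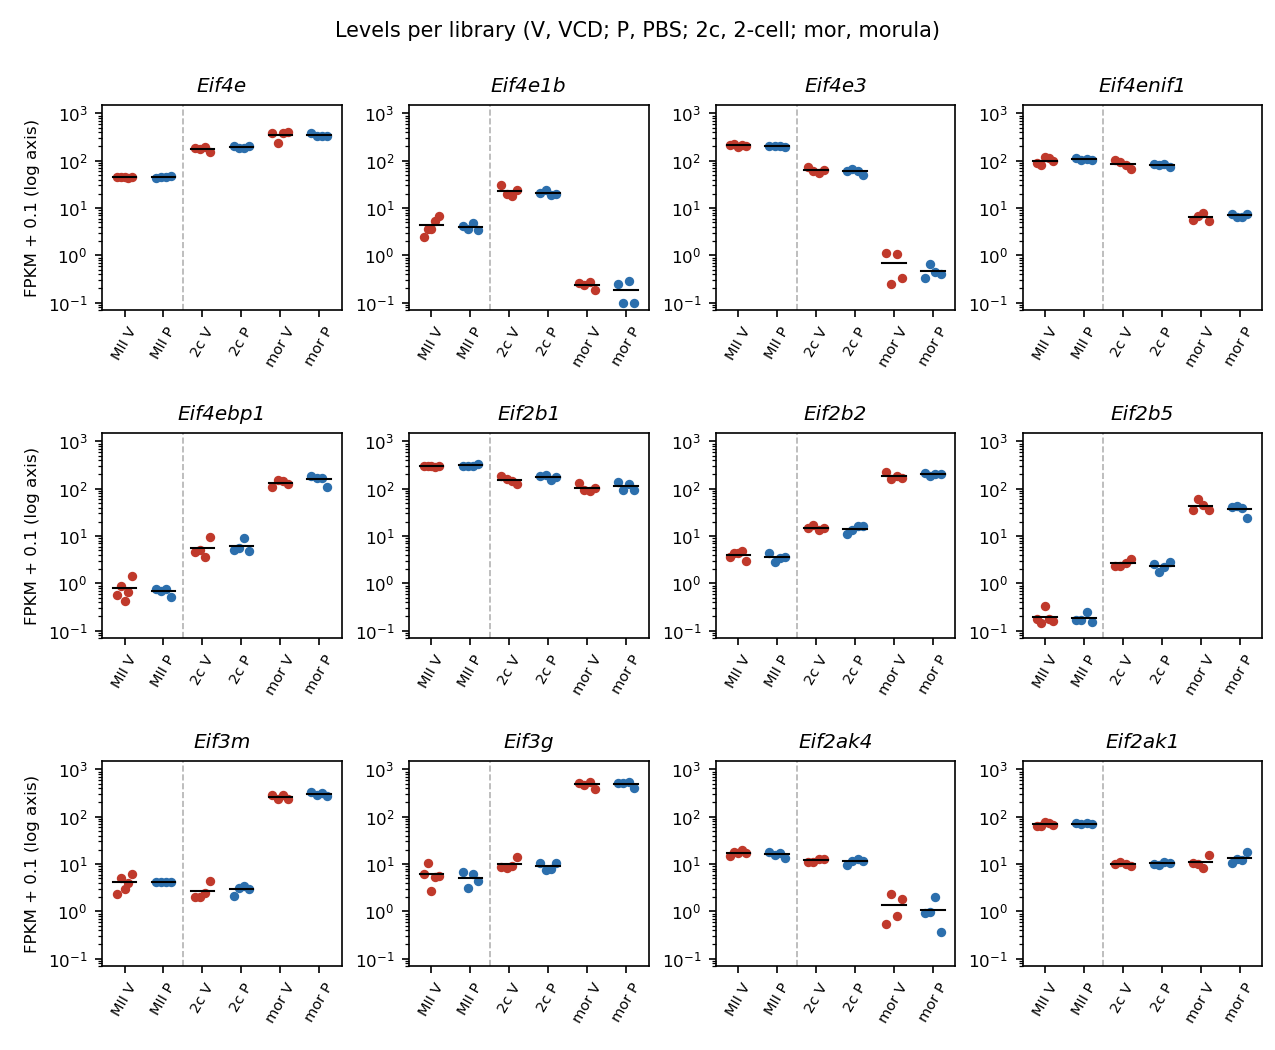
FPKM + 0.1 on a log axis in each library for 12 genes, with VCD in red and PBS in blue, a black bar at the group mean and a dashed line between the separately normalized oocyte and embryo tables. Eif4e climbs while Eif4e1b and Eif4e3 end at or below 1.04 FPKM in morulae, and Eif4ebp1 climbs while Eif4enif1 falls.

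Among the eIF4G scaffolds, Eif4g1 rose with log2 fold changes of 2.58 ± 0.22 with VCD and 2.38 ± 0.15 with PBS (SE). It had 64.3, 60.3, 78.1 and 76.9 FPKM in VCD morulae, against 9.701, 9.53, 8.3001 and 17.4 FPKM in VCD 2-cell embryos, and 57.4, 60.4, 41.7 and 44.6 FPKM in PBS morulae, against 8.299, 9.23, 9.99 and 8.14 FPKM in PBS 2-cell embryos. VCD 2-cell replicate 4 lay well above the other 2-cell libraries, and stages did not overlap. Eif4g2, a relative that lacks the eIF4E-binding part, was at 145 FPKM in VCD morulae, against 91.6 FPKM in VCD 2-cell embryos, and 138 FPKM in PBS morulae, against 75.4 FPKM in PBS 2-cell embryos (means, n = 4 each). It rose with both agents, with log2 fold changes of 0.66 and 0.85, but not with VCD under median-of-ratios scaling (0.16, adjusted p = 0.369). Eif4g3 was low, between 0.767 and 2.47 FPKM in all embryos, and passed as lower with PBS but not with VCD, a difference in calls that was not tested (-0.48 ± 0.18, SE, adjusted p = 0.0269, and -0.15 ± 0.19, SE, with VCD, adjusted p = 0.491). Leaving out any of 6 of the 8 PBS libraries ended that call, with adjusted p between 0.0528 and 0.0983.

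The helicase genes of the cap complex group also rose. Eif4a1, the main eIF4A, had log2 fold changes of 0.93 with VCD and 0.61 with PBS, and the value with PBS was 0.092 (adjusted p = 0.417) under median-of-ratios scaling. Its close relative Eif4a2 rose by 1.22 with VCD and 1.15 with PBS, and Eif4b, which stimulates the helicase, by 1.54 and 1.53. Eif4a3, a member of the exon junction complex rather than a cap factor, averaged 281 ± 40.5 FPKM in VCD morulae, against 37.2 ± 4.65 FPKM in VCD 2-cell embryos, and 300.3 ± 7.93 FPKM in PBS morulae, against 35.7 ± 3.901 FPKM in PBS 2-cell embryos (SD, n = 4 each). Eif4h, which stimulates eIF4A, stood at 144, 179, 121 and 207 FPKM in VCD morulae, against 4.15, 4.099, 3.54 and 5.15 FPKM in VCD 2-cell embryos, and 123, 143, 121 and 161 FPKM in PBS morulae, against 4.06, 4.199, 3.96 and 3.79 FPKM in PBS 2-cell embryos. That made Eif4h the gene of the group with the largest rise (log2 fold changes of 4.95 ± 0.20 with VCD and 4.78 ± 0.13 with PBS (SE)). Transcripts of Eif4a1 share 28.4% and those of Eif4a3 16.5% of their 50-base words with other genes.

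The repressors of eIF4E moved in opposite directions. Eif4enif1, the eIF4E transporter that holds eIF4E in stored mRNA particles, had 88.8, 82.3, 119, 113 and 97.5 FPKM in VCD oocytes and 114, 104, 109 and 105 FPKM in PBS oocytes. It kept 101, 93.8, 79.6 and 65.05 FPKM in VCD and 83.9, 80.5, 84.6 and 74.2 FPKM in PBS 2-cell embryos, and had 5.58, 6.58, 7.56 and 5.16 FPKM in VCD and 7.23, 6.43, 6.32 and 7.44 FPKM in PBS morulae. Morulae lay wholly below 2-cell embryos, with log2 fold changes of -3.57 ± 0.19 with VCD and -3.38 ± 0.12 with PBS (SE) and adjusted p of 1.97e-08 and 8.08e-10. Eif4ebp1, the eIF4E-binding protein controlled by mTOR, was at 110.1, 153, 143 and 123 FPKM in VCD morulae, against 4.41, 4.84, 3.53 and 9.27 FPKM in VCD 2-cell embryos, and 189, 169.9, 167 and 106 FPKM in PBS morulae, against 5.02, 5.42, 8.87 and 4.62 FPKM in PBS 2-cell embryos. No morula overlapped with a 2-cell embryo (log2 fold changes of 4.42 ± 0.25 with VCD and 4.51 ± 0.23 with PBS (SE)), and in oocytes it averaged only 0.699 FPKM with VCD and 0.57996 FPKM with PBS. Eif4ebp2 stayed between 0.680 and 2.67 FPKM in all libraries. Its value with PBS in morulae (0.29 ± 0.13, SE, adjusted p = 0.0485) was just past the threshold and was -0.041 (adjusted p = 0.756) under median-of-ratios scaling. It passed in only 1 of the 8 fits that left out a PBS library (adjusted p between 0.0644 and 0.175 in the other 7), and did not pass with VCD (0.26, adjusted p = 0.241).

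The genes for the 5 subunits of eIF2B were more unequal in oocytes than those of eIF3. Eif2b1 (chr5:124570213-124579131, GRCm38), the alpha subunit of its regulatory core, had 301, 301, 307, 294 and 301 FPKM in VCD oocytes and 308, 295, 298 and 337 FPKM in PBS oocytes. The catalytic epsilon subunit Eif2b5 had 0.0777, 0.04802, 0.226, 0.0787 and 0.0571 FPKM in the same VCD oocytes and 0.0718, 0.0658, 0.147 and 0.04995 FPKM in the PBS oocytes. Between them, the means differed 3083-fold with VCD and 3696-fold with PBS, with Eif2b2, Eif2b3 and Eif2b4 in between at 3.89, 5.57 and 0.453 FPKM with VCD and 3.47, 5.41 and 0.306 FPKM with PBS. At this level Eif2b5 rested on few reads, so these quotients are rough.

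By the morula stage the eIF2B genes had drawn together, with the highest mean 10.6 times the lowest with VCD and 12.8 times with PBS, compared with 61.1 times with VCD and 79.4 times with PBS in 2-cell embryos. Eif2b1 fell, with log2 fold changes of -0.55 with VCD and -0.65 with PBS (adjusted p = 0.0145 and 0.00216), and the other 4 genes rose, Eif2b3 by 3.58 with VCD and 3.49 with PBS and Eif2b4 by 1.74 and 1.86. Eif2b2, the beta subunit, was at 221, 163, 188 and 168 FPKM in VCD morulae, against 14.6, 17.1, 13.2 and 14.3 FPKM in VCD 2-cell embryos, and at 212, 182, 209 and 208 FPKM in PBS morulae, against 10.98, 13.3, 15.9 and 16.4 FPKM in PBS 2-cell embryos. Eif2b5 reached 34.8, 59.9, 44.6 and 35.2 FPKM in VCD morulae, against 2.21, 2.204, 2.61 and 3.11 FPKM in VCD 2-cell embryos, and 40.2, 42.7, 38.1 and 24.5 FPKM in PBS morulae, against 2.46, 1.603, 2.15 and 2.66 FPKM in PBS 2-cell embryos. Both were wholly separate between stages, with log2 fold changes of 3.55 and 3.76 for Eif2b2 and 3.63 and 3.52 for Eif2b5 with VCD and PBS.

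The substrate of eIF2B also rose. Eif2s1, the alpha subunit of eIF2 that the stress kinases phosphorylate, averaged 127 ± 17.9 FPKM in VCD morulae, against 17.8 ± 1.78 FPKM in VCD 2-cell embryos, and 134 ± 8.57 FPKM in PBS morulae, against 18.2 ± 3.02 FPKM in PBS 2-cell embryos (SD, n = 4 each). Eif2s2, the beta subunit, averaged 292 ± 24.9 FPKM in VCD morulae, against 34.2 ± 5.76 FPKM in VCD 2-cell embryos, and 327 ± 46.9 FPKM in PBS morulae, against 32.9 ± 2.83 FPKM in PBS 2-cell embryos (SD, n = 4 each). In oocytes Eif2s2 was at 32.4 FPKM with VCD and 34.9 FPKM with PBS, far above Eif2s1 at 3.15 FPKM with VCD and 3.17 FPKM with PBS. Their log2 fold changes in morulae were 2.76 with VCD and 2.82 with PBS for Eif2s1, and 3.07 and 3.27 for Eif2s2. Eif2a, which despite its name is no subunit of eIF2, rose as well, and Eif2d, a factor of non-canonical initiation, rose with PBS (0.34, adjusted p = 0.0311) but was at -0.15 under median-of-ratios scaling (adjusted p = 0.313). Leaving out any of 6 of the 8 PBS libraries also ended the call for Eif2d (adjusted p between 0.0548 and 0.101).

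Each eIF2 kinase, which senses its own kind of stress, had its own course. Eif2ak4 (GCN2, the amino acid sensor) was at 14.7, 17.7, 16.9, 19.2 and 17.3 FPKM in VCD oocytes and 17.5, 15.7, 16.99 and 13.6 FPKM in PBS oocytes. It was at 11.003, 10.8, 12.4 and 12.9 FPKM in VCD and 9.55, 11.5, 12.8 and 11.7 FPKM in PBS 2-cell embryos, and at 0.435, 2.24, 0.683 and 1.72 FPKM in VCD and 0.8302, 0.887, 1.93 and 0.272 FPKM in PBS morulae. It fell with both agents and without overlap (log2 fold changes of -2.57 ± 0.26 with VCD and -2.702 ± 0.23 with PBS (SE)), so at the morula stage it was near the limit of 1 FPKM. With each agent Eif2ak4 passed the filter through the 2-cell embryos, so this fall is a description. Eif2ak1 (HRI, the haem-regulated kinase) was the highest kinase in oocytes, at 68.3 ± 6.62 FPKM with VCD and 70.6 ± 1.71 FPKM with PBS (SD, n = 5 and 4). In morulae it averaged 10.9 FPKM with VCD, against 9.86 FPKM in VCD 2-cell embryos, and 13.3 FPKM with PBS, against 10.2 FPKM in PBS 2-cell embryos, and did not pass with either agent (adjusted p = 0.632 and 0.0779). Without PBS morula replicate 1 its value with PBS passed (0.42, adjusted p = 0.0314), and under median-of-ratios scaling both values lay below 0. Its exons overlap 487 bases of Aimp2 on the opposite strand, which had 10.5 to 163 FPKM in embryos, so without stranded counting the reads of the pair could not be told apart. Eif2ak3 (PERK, the kinase of the endoplasmic reticulum) was low and rose, to 3.52 FPKM in VCD morulae, against 1.95 FPKM in VCD 2-cell embryos, and 3.06 FPKM in PBS morulae, against 1.91 FPKM in PBS 2-cell embryos. Neither rise passed under median-of-ratios scaling (adjusted p = 0.212 and 0.542), nor the one with PBS without 2-cell PBS replicate 4 (adjusted p = 0.0758). Eif2ak2 (PKR, the double-stranded RNA sensor) did not exceed 0.440 FPKM in any library and was not tested.

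The scanning factors split as well. Eif1, which guards start-codon choice, fell, with log2 fold changes of -0.59 with VCD and -0.53 with PBS (adjusted p = 0.0271 and 0.00131), and its close relative Eif1b fell with -1.77 with VCD and -2.203 with PBS. The fall of Eif1 with VCD did not pass without 2-cell VCD replicate 4, morula VCD replicate 2 or morula VCD replicate 4 (adjusted p between 0.0546 and 0.0773). It also missed with no filter on low values (adjusted p = 0.0659) and, over the genes of the full set, without 2-cell VCD replicate 1 (adjusted p = 0.0523). Eif1ax, the X-linked eIF1A gene, averaged 58.3 ± 9.74 FPKM in VCD morulae, against 24.5 ± 3.22 FPKM in VCD 2-cell embryos, and 58.4 ± 11.1 FPKM in PBS morulae, against 27.9 ± 4.18 FPKM in PBS 2-cell embryos (SD, n = 4 each), with log2 fold changes of 1.21 and 1.03. Eif5, which triggers GTP hydrolysis on eIF2 at the start codon, averaged 345 ± 90.6 FPKM in VCD morulae, against 89.2 ± 12.2 FPKM in VCD 2-cell embryos, and 379 ± 71.2 FPKM in PBS morulae, against 84.04 ± 8.77 FPKM in PBS 2-cell embryos (SD, n = 4 each). Eif1ad, which carries an eIF1A-like domain, rose by 2.44 with VCD and 2.59 with PBS on the same scale. Its exons overlap 428 bases of Banf1 on the opposite strand, and Banf1 had 45.4 to 241 FPKM in embryos. Whether the counting used strand is not given, and without it reads of that overlap cannot be told apart.

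Eif1a (chr18:46597701-46616456, GRCm38), the autosomal eIF1A gene, was measured low in oocytes, with 0.797, 1.998, 0.504, 0.685 and 2.08 FPKM with VCD and 1.301, 1.14, 1.75 and 1.37 FPKM with PBS. It reached 138, 142, 118 and 153 FPKM in VCD morulae, against 15.2, 18.2, 20.6 and 10.8 FPKM in VCD 2-cell embryos, and 218, 145, 169 and 144 FPKM in PBS morulae, against 12.5, 15.2, 16.96 and 14.6 FPKM in PBS 2-cell embryos. The stages were far apart, with log2 fold changes of 3.04 ± 0.20 with VCD and 3.41 ± 0.16 with PBS (SE).

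Besides the members, 16 protein-coding genes between bases 87494721 and 88324026 of chromosome 12 (GRCm38) carry other names but code for eIF1A-like proteins. Their annotated coding sequences matched that of Eif1a at 93.7% to 95.1% of aligned bases, whereas that of Eif1ax matched at 85.6% (blastn). All 16 were in the embryo table and 4 in the oocyte table, where those 4 summed to at most 1.16 FPKM. Summed over the 16, the level was 44.7, 34.996, 71.1 and 42.8 FPKM in VCD morulae, against 1807, 2864, 3955 and 1923 FPKM in VCD 2-cell embryos, and 62.9, 45.7, 56.9 and 29.8 FPKM in PBS morulae, against 2757, 3558, 2752 and 2885 FPKM in PBS 2-cell embryos. VCD 2-cell embryos were the most uneven, and all 2-cell embryos lay far above all morulae, the reverse of Eif1a. Each of the 16 was lower in morulae with both agents, with log2 fold changes between -7.66 and -2.47 with VCD and between -7.58 and -2.60 with PBS. All 16 passed the filter through the 2-cell embryos, and only 5 with VCD and 4 with PBS reached 1 FPKM in all 4 morulae, so their shared direction is a description. The highest was Gm8332, with 2.54 FPKM in VCD morulae, against 415 FPKM in VCD 2-cell embryos, and 3.69 FPKM in PBS morulae, against 464 FPKM in PBS 2-cell embryos (means, n = 4 each).

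The copies are near repeats of each other. Between 48.3% and 100% of the 50-base words in their coding sequences also occur in another copy or in Eif1a, with a median of 77.8%, so their separate values are uncertain and the sum is the firmer measure. Words shared with Eif1a itself made up 3.13% to 15.7%, and none were shared with Eif1ax. The first 90 coding bases of 2 copies are shown beside those of Eif1ax (GENCODE M21 transcripts, 5′ to 3′), with bases that differ from Eif1ax in capitals.
Eif1ax, chrX:159372178-159389928, plus strand: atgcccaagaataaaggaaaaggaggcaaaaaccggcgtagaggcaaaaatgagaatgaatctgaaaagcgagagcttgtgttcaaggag
Gm8332, chr12:88249666-88250100, minus strand: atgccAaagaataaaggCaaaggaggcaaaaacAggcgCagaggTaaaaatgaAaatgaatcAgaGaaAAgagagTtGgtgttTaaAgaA
Gm2056, chr12:88027004-88027438, plus strand: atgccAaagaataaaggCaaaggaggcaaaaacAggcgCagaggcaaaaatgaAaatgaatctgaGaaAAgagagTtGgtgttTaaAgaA
Gm8332 differs from Eif1ax at 15 of these bases and Gm2056 at 13, and over the whole 432 coding bases they match it at 85.0% and 85.2%.

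The joining and late factors rose apart from Eif5a2. Eif5a, the hypusine-bearing factor that helps the ribosome past difficult peptide bonds, was the most abundant member of morulae, with 787, 711, 778 and 738 FPKM with VCD, against 201, 203, 213 and 268 FPKM in VCD 2-cell embryos, and 619, 724, 657 and 689 FPKM with PBS, against 209, 205, 217 and 195 FPKM in PBS 2-cell embryos. In oocytes it was at 60.6 ± 8.33 FPKM with VCD and 52.4 ± 4.1001 FPKM with PBS (SD, n = 5 and 4), so it too was higher at each later stage. Its relative Eif5a2 peaked in 2-cell embryos, at 1.91, 2.59, 3.495 and 2.92 FPKM with VCD and 2.81, 3.42, 3.26 and 3.07 FPKM with PBS, and fell in morulae to 0.173, 0.898, 1.03 and 1.02 FPKM with VCD and 1.19, 0.335, 1.02 and 1.14 FPKM with PBS. Eif5a2 too passed the filter through the 2-cell embryos with each agent, so its fall is a description. Eif5b, the GTPase that joins the subunits, rose by 2.13 with VCD and 2.12 with PBS on the log2 scale. Its exons share 1643 bases with Rev1 on the opposite strand. Eif6, which keeps the ribosomal subunits apart, averaged 209 ± 23.2 FPKM in VCD morulae, against 30.9 ± 7.03 FPKM in VCD 2-cell embryos, and 225 ± 27.8 FPKM in PBS morulae, against 29.1 ± 1.48 FPKM in PBS 2-cell embryos (SD, n = 4 each). It had the largest rise in this group, with log2 fold changes of 2.74 ± 0.18 with VCD and 2.904 ± 0.13 with PBS (SE).

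Levels within a library were then compared between paralogs, as log2 ratios of FPKM + 0.1, with two-sided exact permutation tests adjusted over 25 comparisons. The Eif4e1b to Eif4e ratio was -10.51 ± 0.45 in VCD morulae, against -2.96 ± 0.41 in VCD 2-cell embryos, and -11.05 ± 0.79 in PBS morulae, against -3.21 ± 0.19 in PBS 2-cell embryos (SD, n = 4 each). Eif1a to Eif1ax was above 0 in every morula and below 0 in every 2-cell embryo, with 1.25 ± 0.21 in VCD morulae, against -0.62 ± 0.57 in VCD 2-cell embryos, and 1.53 ± 0.23 in PBS morulae, against -0.90 ± 0.39 in PBS 2-cell embryos. For Eif4e2 to Eif4e the differences of morulae over 2-cell embryos were 2.56 with VCD and 2.68 with PBS, and for Eif5a2 to Eif5a -3.63 and -3.48. In all 8 of these comparisons the stages did not overlap. Each gave an exact p of 0.0286, the smallest that 4 against 4 libraries allow, or 0.0893 after adjustment, so none of the 8 passed. No wider gap between the stages could have lowered these p-values, so the tests do not decide whether the ratios changed. The lack of overlap is a description. For Eif4e1b, at or near 0 FPKM in every morula, the ratio there also depends on the 0.1 added. The ratio of Eif4a2 to Eif4a1 differed by 0.30 with VCD (exact p = 0.314) and by 0.55 with PBS (exact p = 0.0857), and these did not pass either.

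**Figure D4:**
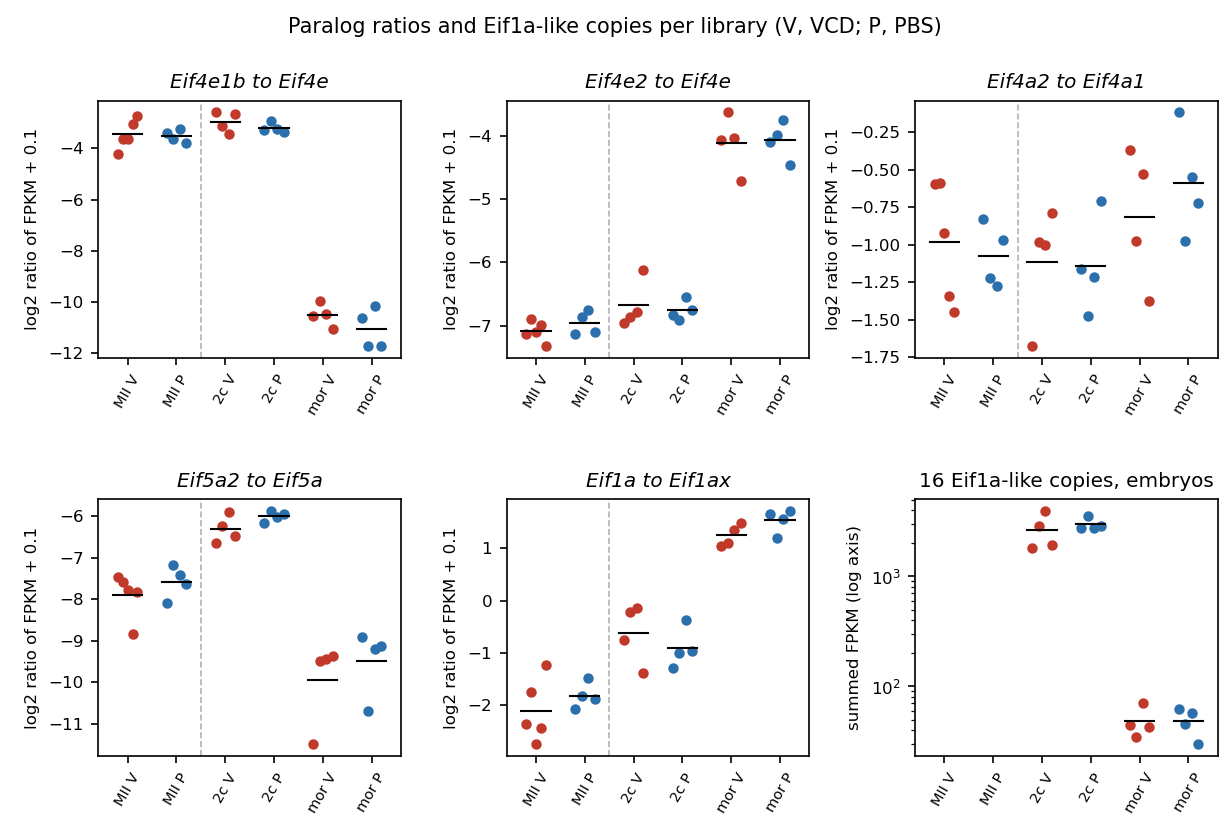
Log2 ratios of FPKM + 0.1 between paralogs in each library, and at lower right the summed FPKM of the 16 Eif1a-like copies in embryos on a log axis, with VCD in red, PBS in blue and a black bar at the group mean. Eif4e1b to Eif4e lies near -3 in 2-cell embryos and below -9 in morulae, Eif1a to Eif1ax crosses 0, and the copies lie above 1800 FPKM in 2-cell embryos and at or below 71.1 FPKM in morulae.

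VCD was compared with PBS at each stage, to see whether the compound in the media changed the RNA of these factors. No member passed at any stage. In MII oocytes limma tested 39 members, called none, and gave none an unadjusted p below 0.05, where 0.0115% of the 8715 genes tested were called. No oocyte member had groups that did not overlap, where 1.04% of all genes tested did. The 95% interval of each of the 39 members lay within a 2-fold change of FPKM + 1 either way. That scale understates changes of members near 1 FPKM, so a 2-fold change of their FPKM is not excluded. With a pseudocount of 0.1, 38 of the 39 intervals lay within a 2-fold change. Limma-voom on recovered reads also called none, of 47 members tested, with none at an unadjusted p below 0.05. Leaving out 1 library at a time put between 0 and 4 members below that value, with 4 when VCD replicate 3 was left out, where the count over all genes was 501, against 245 with it.

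The smallest p of the oocytes belonged to Eif5a, with 57.8, 58.5, 50.4, 72.9 and 63.6 FPKM with VCD and 58.5, 49.5, 50.9 and 50.9 FPKM with PBS. The groups overlapped, and the log2 fold change was 0.20 with a 95% interval of -0.030 to 0.43 (limma, adjusted p = 0.999). Eif4b, which stimulates eIF4A, had 13.6, 14.3, 15.03, 23.8 and 13.9 FPKM with VCD and 13.4, 12.02, 13.8 and 12.8 FPKM with PBS, where replicate 4 with VCD alone stood out. For Eif5b, Eif6, Eif5 and Eif4h the log2 fold changes lay between 0.12 and 0.26.

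In 2-cell embryos 48 members were tested and none was called, where 0% of the 11369 genes tested were (limma). One member had an unadjusted p below 0.05, and 3 had groups that did not overlap, where 2.16% of all genes tested did. The first was Eif4g2, with 81.3, 85.8, 98.99 and 100.1 FPKM with VCD and 73.2, 75.2, 80.96 and 72.02 FPKM with PBS. Its lowest VCD library was just above the highest PBS library, and the log2 fold change was 0.27 with an interval of 0.031 to 0.52 (limma, adjusted p = 0.999). Eif3i was lower with VCD, at 83.7, 77.6, 69.1 and 79.7 FPKM, against 90.1, 90.9, 85.98 and 88.6 FPKM with PBS, and Eif3b higher, at 2.08, 2.1997, 2.35 and 2.41 FPKM, against 1.73, 2.03, 1.88 and 1.099 FPKM. Both missed the threshold (log2 fold changes -0.20 and 0.29, adjusted p = 0.999 for each). Eif3a, Eif3c and Eif3e, also eIF3 genes, had values of 0.25, 0.34 and 0.28, whereas Eif3l and Eif3m had -0.19 and -0.12. Over the 11 eIF3 genes tested, 6 values were above 0, with a median of 0.089 and a range between -0.20 and 0.34. All 48 intervals lay within a 2-fold change of FPKM + 1, and all 48 also did with a pseudocount of 0.1. Leaving out 1 library at a time put between 0 and 3 members at an unadjusted p below 0.05, with 3 when VCD replicate 1 was left out and 0 when VCD replicate 3 or 4 or PBS replicate 1 or 2 was.

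In morulae 48 members were tested and none was called, where 0.0100% of 9959 genes were. Unadjusted p fell below 0.05 for 2 members, and 1 had groups that did not overlap, where 2.04% of all genes tested did. Eif4g1 was at 64.3, 60.3, 78.1 and 76.9 FPKM with VCD and 57.4, 60.4, 41.7 and 44.6 FPKM with PBS. One PBS library reached the lowest VCD value, and the log2 fold change was 0.46 with an interval of 0.061 to 0.85 (limma, adjusted p above 0.999). Eif4a1 was at 302, 278, 234 and 292 FPKM with VCD and 222, 232, 207 and 229 FPKM with PBS, with every VCD library higher, and had a log2 fold change of 0.31 with an interval of 0.0013 to 0.61. Eif3j1, Eif3j2 and Eif3f had log2 fold changes of 0.44, 0.52 and 0.39, and Eif1a one of -0.28. The intervals of Eif3j2 and Eif2d reached past a 2-fold change of FPKM + 1, and those of the other 46 members did not. With a pseudocount of 0.1, 43 of the 48 intervals lay within a 2-fold change. Voom on recovered reads called no member in 2-cell embryos or morulae, with 1 and 2 members at an unadjusted p below 0.05. In morulae that count was 3 without VCD replicate 1, 0 without PBS replicate 3, and 1 or 2 without each of the others.

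**Figure D5:**
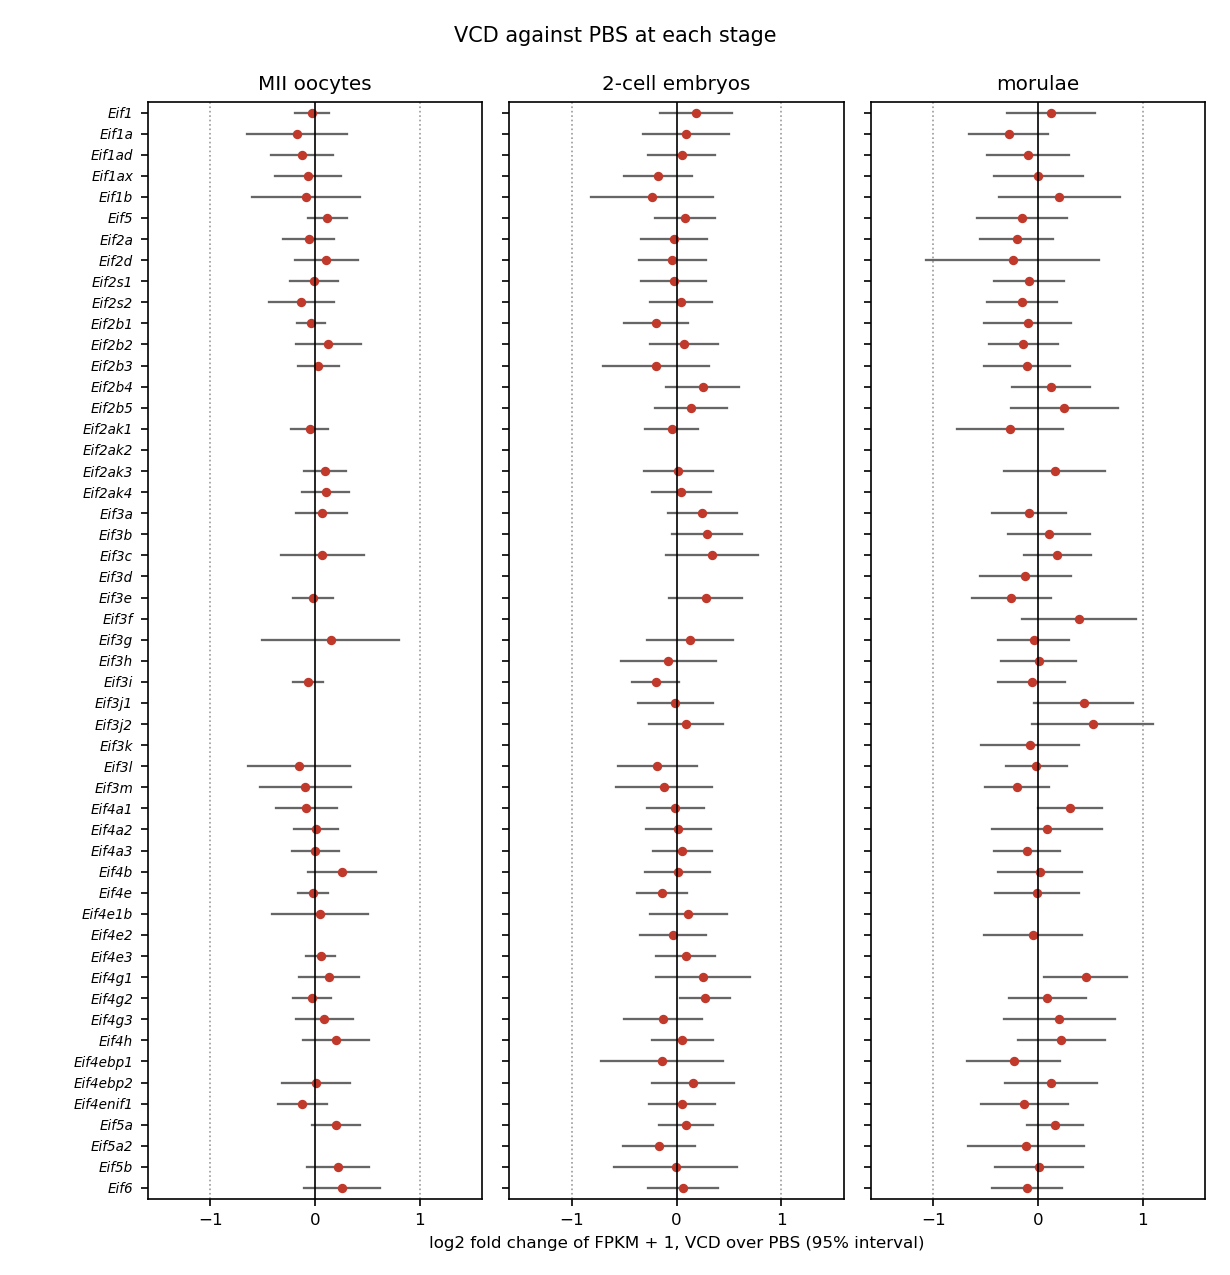
Log2 fold change of FPKM + 1 with VCD over PBS in MII oocytes, 2-cell embryos and morulae, with 95% intervals, for each tested member; dotted lines mark a 2-fold change. Points lie between -0.28 and 0.52, and only the morula intervals of Eif2d and Eif3j2 cross a dotted line.

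Eif4e1b had a VCD log2 fold change of 0.049 (-0.41 to 0.50) in oocytes and 0.11 (-0.26 to 0.48) in 2-cell embryos, with 95% intervals in parentheses, and was too low to test in morulae. The values of Eif4e were -0.016 in oocytes, -0.14 in 2-cell embryos and -0.013 in morulae, and those of Eif4enif1 -0.12, 0.054 and -0.13. The stress kinase Eif2ak3 gave 0.094, 0.019 and 0.16, and Eif2ak4 0.10 in oocytes and 0.046 in 2-cell embryos. The 16 Eif1a-like copies all had 2-cell values below 0, between -0.64 and -0.051 (adjusted p = 0.999), and they share sequence, so they are not separate measurements. Among the 15 paralog ratios tested between agents the smallest exact p was that of Eif1a to Eif1ax in morulae, with 1.25 ± 0.21 with VCD and 1.53 ± 0.23 with PBS (SD, n = 4 each, exact p = 0.114, 0.286 after adjustment).

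Whether the VCD effect differed between morulae and 2-cell embryos was tested as an interaction over the 16 embryo libraries. Of 51 members none was called, where 0% of 14144 genes were (limma), and 1 had an unadjusted p below 0.05, against 3 without 2-cell VCD replicate 1 and between 0 and 2 without each of the others. That was Eif3e, whose VCD log2 fold change was -0.25 in morulae and 0.28 in 2-cell embryos, a difference of -0.53 with an interval of -1.03 to -0.030 (limma, adjusted p = 0.999). For Eif4a1 the difference was 0.32, for Eif3a -0.33 and for Eif1a -0.37.

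Genes of the neighbouring steps of translation were listed alongside, 46 in 7 lists, of which 45 were tested between stages. With VCD 29 rose and 9 fell in morulae, and with PBS 28 rose and 9 fell. Over all genes tested, 41.0% rose and 43.9% fell with VCD, and 42.7% rose and 45.0% fell with PBS. The lists are short, so their separate counts are a description. None of the listed genes was called between VCD and PBS at any stage, where at most 0.0115% of all genes tested were. Of 7 elongation genes 6 rose with each agent and Eef2k, the kinase that inhibits elongation factor eEF2, fell. Eef2k averaged 0.0854 ± 0.0605 FPKM in VCD morulae, against 21.2 ± 7.72 in VCD 2-cell embryos, and 0.0796 ± 0.0599 in PBS morulae, against 18.2 ± 2.89 in PBS 2-cell embryos (SD, n = 4 each). With such morula values Eef2k passed the filter through the 2-cell embryos alone, so its fall is a description. Its target Eef2 averaged 284 FPKM in VCD morulae, against 14.7 in VCD 2-cell embryos, and 234 in PBS morulae, against 14.3 in PBS 2-cell embryos, with log2 fold changes of 4.18 and 3.95.

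The genes of the poly(A)-binding proteins, which join the mRNA tail to eIF4G, went both ways, as all genes tested did. Pabpc1l, the form known from oocytes and early embryos, averaged 0.0676 FPKM in VCD morulae, against 42.2 in VCD 2-cell embryos, and 0.212 in PBS morulae, against 39.8 in PBS 2-cell embryos. Pabpc1, the general form, averaged 32.3 FPKM in VCD morulae, against 2.08 in VCD 2-cell embryos, and 28.7 in PBS morulae, against 1.77 in PBS 2-cell embryos. One fell and the other rose with both agents (limma, adjusted p at most 5.33e-08). Pabpc1l was tested only through the 2-cell embryos where it was high, so its fall is a description. Of the 6 tested genes of the list 3 rose and 2 fell with each agent, and the second that fell was Paip1, which binds poly(A)-binding protein and eIF3, with log2 fold changes of -5.48 with VCD and -5.72 with PBS. Both hypusination genes, Dhps and Dohh, whose products modify eIF5A, rose with each agent, Dhps by 3.67 with VCD and 4.25 with PBS.

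Of 6 termination and recycling genes 4 rose and 2 fell with each agent, and of 9 initiation helpers 5 rose with each, while 1 fell with VCD and 2 with PBS. Among 9 kinase and phosphatase genes 5 rose and 1 fell with each agent. Larp1, which binds mRNAs of the translation machinery, rose by 4.201 with VCD and 4.197 with PBS, and Ppp1r15a, the inducible subunit of the phosphatase that reverses eIF2 phosphorylation, fell with log2 fold changes of -1.49 with VCD and -1.48 with PBS. Ppp1r15b, its constitutive counterpart, rose by 2.44 with VCD and 2.67 with PBS. Of 6 target genes of the stress response that follows eIF2 phosphorylation, 4 rose and 2 fell with VCD, and 3 rose and 1 fell with PBS. Atf4, its central transcription factor, was at 354 FPKM in VCD morulae, against 243 in VCD 2-cell embryos, and 427 in PBS morulae, against 219 in PBS 2-cell embryos.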

How the data were processed

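The authors deposited FPKM, per the file headers and labels, in one table for oocytes and one for embryos, each normalized on its own. Bowtie2 2.2.3 and TopHat2 2.0.12 were used, per the submitters' processing notes, which name the build as galGal4, although all identifiers are mouse Ensembl genes. The counting tool and annotation are not given. Symbols were matched by identifier for 25073 of 25158 oocyte and 34065 of 34228 embryo genes, and coordinates come from GENCODE M21 on GRCm38.

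Limma 3.58.1 (R 4.3.3, trended variance) was run on log2(FPKM + 1) over every gene that reached 1 FPKM in 4 or more of the libraries compared, with Benjamini-Hochberg adjustment over all of them and a threshold of 0.05. Fold changes on this scale understate those of low genes. Groups followed the labels. Ratios of paralogs used scipy 1.17.1 (Python 3.11.15), and copies were matched with BLAST 2.17.0 at an e-value limit of 1e-10. Scaled by exon length and by 1 factor per library, FPKM came out as whole reads within 0.01 for 90.6% to 93.4% of values under 200 reads. The reads recovered this way served for depth, for Eif4e1b and for a limma-voom alternative. For Eif4e1b 15 of 15 values under 200 reads were whole. Only 0 of 17 were for Eif2b5, 0 of 9 each for Eif1a and Eif1ad, 0 of 8 for Eif3l and 5 of 17 for Eif3d. Recovered reads of those members, also used in the limma-voom alternative, are therefore approximate. The amplified reads have no molecular identifiers, so read counts cover counting error only. The main limma fit was tested on simulated data for each comparison of VCD with PBS and of morulae with 2-cell embryos. The interaction and the alternative fits were not. In the simulation only a small part of the genes changed, whereas the real stage fits called most genes tested. It therefore does not show how the stage fits handle so broad a change.

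The members, lists and tests were chosen with earlier results of these data known. Genes were named by a rule, taking up to 25 members of largest change with an adjusted p below 0.05 and a mean of at least 5 FPKM in the higher group, or the 6 of smallest p where fewer than 6 qualified, plus a fixed panel. Eif1, Eif1b, Eif2a, Eif2b1, Eif2b4, Eif2d, Eif3d, Eif3k and Eif4a2 were named after their values were seen. Alternatives were another pseudocount, filter or scaling, a replicate block, recovered reads, and leaving out each library.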

Additional observations from a re-analysis of the deposited data

Results flagged for a closer look

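Of 268 combinations of a member and a group of 4 or 5 libraries, 14 had a library set apart from the rest of its group by Dixon's criterion, where chance gives about 5%. No explanation was tested for any of them.

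Among VCD oocytes, Eif2b3 was at 4.81 FPKM in replicate 2, below the 5.598 to 5.866 FPKM of the others, and Eif4b at 23.8 FPKM in replicate 4, above 13.6 to 15.0 FPKM. Among PBS oocytes, Eif2d was at 3.43 FPKM in replicate 3, above 2.43 to 2.52 FPKM, and Eif5a at 58.5 FPKM in replicate 1, above 49.5 to 50.9 FPKM.

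In VCD 2-cell embryos, replicate 4 was high for Eif2s2, at 42.8 FPKM above 30.8 to 32.1 FPKM, and for Eif4g1, at 17.4 FPKM above 8.30 to 9.70 FPKM. Eif3a was low in replicate 1, at 9.496 FPKM below 13.2 to 13.4 FPKM.

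In VCD morulae, replicate 2 held 35.1 FPKM of Eif2d, above 7.44 to 11.3 FPKM, and 237 FPKM of Eif4e, below 380.5 to 396 FPKM. Eif5 was at 481 FPKM in replicate 1, above 294 to 307 FPKM. Without replicate 2 the log2 fold change of Eif2d in VCD morulae over VCD 2-cell embryos was -0.31, and with it 0.14, neither past the threshold.

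In PBS morulae, Eif2b2 was at 182 FPKM in replicate 2, below 208 to 212 FPKM, and Eif2b4 at 14.3 FPKM in replicate 3, below 16.3 to 16.5 FPKM. Eif3g was at 408 FPKM in replicate 4, below 509 to 529 FPKM, and Eif4e at 391 FPKM in replicate 1, above 327 to 337 FPKM.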

How the results depend on the processing

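No member was called between VCD and PBS, or in the interaction, under any alternative run. Between stages, the counts of members higher and lower in morulae stayed within 1.5 times under every alternative run. They were 36 and 9 with each agent under median-of-ratios scaling, and 37 to 39 and 6 to 8 with VCD and 36 to 40 and 6 to 9 with PBS when each library was left out. Under median-of-ratios scaling Eif4ebp2 with PBS moved to -0.041. The labels do not say whether replicate numbers pair the libraries. Same-numbered libraries correlated between -0.33 and 0.38 in their deviations, and no comparison had all above 0.1. The highest values, 0.33 and 0.38, were between VCD and PBS morulae. Such correlations over few libraries cannot exclude a pairing. With the replicate block 39 members were higher and 8 lower with VCD, and 39 higher and 9 lower with PBS, and the calls of Eif2d and Eif4ebp2 with PBS ended (adjusted p = 0.0546 and 0.0917). In the morula comparison of VCD with PBS, the block put 4 members at an unadjusted p below 0.05, against 2 without it. Over all genes tested there the count was 417 with the block, against 311 without it. Levels rescaled to TPM moved by less than 1 SD, but with PBS that scaling ended the calls of Eif2d and Eif4ebp2 (adjusted p = 0.0508 and 0.0754). With no filter the calls of Eif1 with VCD and of Eif4g3 and Eif4ebp2 with PBS ended (adjusted p = 0.0659, 0.0691 and 0.0857), and a pseudocount of 0.1 and limma-voom also ended that of Eif4ebp2 (adjusted p = 0.0802 and 0.0726). FPKM carry no measure of total RNA per embryo, and low members such as Eif3f, Eif2b5 or Eif4e1b rest on few reads in some stages. The causes of these changes were not tested.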

Other observations

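Among genes of neighbouring steps, Eef1g, a subunit of the elongation factor that recharges eEF1A, averaged 71.2 ± 6.44 FPKM in VCD morulae, against 0.526 ± 0.300 FPKM in VCD 2-cell embryos, and 60.8 ± 6.70 FPKM in PBS morulae, against 0.525 ± 0.206 FPKM in PBS 2-cell embryos (SD, n = 4 each). Eef1g passed the filter only through the morulae where it was high, so its rise is a description. The ribosome recycling factor Abce1 had log2 fold changes of 3.74 with VCD and 4.04 with PBS. Gspt2 and Hbs1l, which encode relatives of the termination GTPase, were the 2 termination and recycling genes that fell, with log2 fold changes of -2.34 with VCD and -2.59 with PBS for Gspt2, and -2.598 with VCD and -2.67 with PBS for Hbs1l.

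Among targets of the stress response, Ddit3, a transcription factor gene, averaged 8.60 ± 5.33 FPKM in VCD morulae, against 17.3 ± 4.05 FPKM in VCD 2-cell embryos, and 5.21 ± 1.93 FPKM in PBS morulae, against 17.5 ± 2.80 FPKM in PBS 2-cell embryos (SD, n = 4 each). Asns, the asparagine synthetase gene, was uneven among morulae, at 21.0 ± 17.6 FPKM with VCD and 44.6 ± 67.2 FPKM with PBS (SD, n = 4 each), with an SD above its mean with PBS.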
